A study of Mus musculus with 97 samples.

Results

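The genes described here are the 9 core members of the mouse hedgehog pathway, which were the ligands Shh, Ihh and Dhh, the receptor Ptch1, the ligand-binding inhibitor Hhip, the transducer Smo and the transcription factors Gli1, Gli2 and Gli3. They were taken from the gene table by symbol, 9 of 51368 genes. The members were chosen by their place in the pathway and on the values of Gli1, which had been found among the genes with the lowest p-values in female hearts on naproxen with daily PBS injections. The values of that comparison are therefore given as a description, with no test.

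Hedgehog ligands are secreted proteins that bind Ptch1 on the receiving cell. Unbound Ptch1 holds Smo inactive, and binding releases Smo, which acts through the primary cilium to turn the GLI factors from repressors into activators. Gli1, Ptch1 and Hhip are themselves transcribed in response to the signal and are read as its output, while Gli2 is the main activator and Gli3 the main repressor. In the intestine the epithelium makes Ihh and the underlying mesenchyme carries Ptch1, Hhip and the GLI factors. In the adult heart, Gli1 marks perivascular stromal cells.

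RNA was sequenced from 59 whole hearts and 38 flushed jejuna of C57BL/6 mice aged 11 weeks, in 14 groups. All mice were fed for 3 weeks either plain chow or chow with a cyclooxygenase inhibitor: naproxen, which blocks both cyclooxygenases, at 1323 ppm for females and 1610 ppm for males, or celecoxib, which is selective for cyclooxygenase-2, at 550 ppm. In experiment 1, hearts of uninjected females and males were taken on naproxen or control chow (5 per sex and diet), so dose and sex cannot be told apart there. In the other experiments all mice were female and had an injection into the peritoneum every day of the last week, of tryptophan at 50 mg/kg where named and otherwise of PBS. Experiment 2 held hearts of control (8), naproxen (7) and naproxen plus tryptophan (8) mice. Experiment 3 held hearts of control (8) and tryptophan (8) mice. Experiment 4 held jejuna of mice on celecoxib (8), naproxen (7), naproxen plus tryptophan (7), tryptophan alone (8) and neither drug nor tryptophan (8, the controls).

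Depth, in units of 1e+06 estimated counts per library, ranged over 26.3 to 32.47 for experiment 1, 28.42 to 67.14 for experiment 2 and 41.4 to 76.36 for experiment 3. The jejuna were shallower, at 10.11 to 28.54. Heart libraries were made from poly(A) RNA and jejunum libraries by ribosomal RNA depletion, because jejunum RNA had integrity numbers below 8, so levels are compared within a tissue only. The tissue labels were checked with defining genes: the cardiac myosin Myh6 had a median of 22840 CPM (counts per 1e+06 counts of the scaled library) in hearts and 0 in jejuna, and the brush border gene Vil1 1901 CPM in jejuna and 0.1703 CPM in hearts. A jejunum of the control group, replicate 1, stood apart from the other controls, with the lowest summed level of 8 gut epithelium markers in its group (10690 CPM, others 16720 to 23710 CPM) and the highest of 6 telocyte markers, genes of subepithelial mesenchymal cells (902.9 CPM, others 180.4 to 509.9 CPM). A female control heart of experiment 1, replicate 1, stood apart in Smo. Where stated, results are given without the library concerned as well. These are bulk samples, in which fewer cells of a type and less RNA per cell cannot be told apart. The p-values set a difference between groups against the spread between animals.

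In the GENCODE M21 annotation of GRCm38 all 9 are protein-coding genes, with Gli1 at chr10:127329882-127341974, Ptch1 at chr13:63508328-63573598, Hhip at chr8:79965851-80058006 and Ihh at chr1:74945315-74951672, all on the minus strand. Promoter sequences are shown for the pair of signal-induced members that moved most closely together in the jejunum, Ptch1 and Hhip, and for the ligand Ihh, which moved against them. Each is the 250 bases before a RefSeq start on GRCm38.p6, read 5′ to 3′ on the gene's strand. The Ptch1 window belongs to a start inside the longer GENCODE gene. Capitals mark runs within 2 mismatches of the GLI consensus GACCACCCA or its reverse complement TGGGTGGTC.
Ptch1 (chr13:63565736-63565985, minus strand): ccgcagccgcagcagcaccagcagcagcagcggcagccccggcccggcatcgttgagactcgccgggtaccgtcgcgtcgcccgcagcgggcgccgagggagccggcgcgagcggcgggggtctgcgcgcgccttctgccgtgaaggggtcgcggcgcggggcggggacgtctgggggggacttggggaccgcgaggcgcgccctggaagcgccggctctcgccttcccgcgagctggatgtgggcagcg
Hhip (chr8:80058009-80058258, minus strand): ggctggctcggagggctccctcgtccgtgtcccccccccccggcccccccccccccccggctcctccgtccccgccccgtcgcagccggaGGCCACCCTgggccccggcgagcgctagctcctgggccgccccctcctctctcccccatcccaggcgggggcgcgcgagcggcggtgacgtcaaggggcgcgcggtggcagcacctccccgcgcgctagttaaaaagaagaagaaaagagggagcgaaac
Ihh (chr1:74951673-74951922, minus strand): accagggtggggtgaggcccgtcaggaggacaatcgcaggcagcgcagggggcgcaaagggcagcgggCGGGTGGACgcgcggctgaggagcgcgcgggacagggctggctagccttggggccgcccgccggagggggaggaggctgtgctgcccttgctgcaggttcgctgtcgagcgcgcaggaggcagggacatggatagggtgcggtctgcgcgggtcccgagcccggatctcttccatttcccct
The Hhip window held 1 such run, GGCCACCCT, which began 160 bases before the start, and the Ihh window held CGGGTGGAC at 182 bases. Ptch1 had none, its closest match having 3 mismatches. Windows were found for 7 of the 9 members, not for Gli1 or Shh, and none of the 7 held a match with 1 mismatch or fewer. Of 32851 promoter windows of this length, 0.225% held an exact match, 5.79% a match with at most 1 mismatch and 51.8% a match with at most 2, so the Hhip and Ihh runs are of a kind that most windows hold. The windows differed in base composition, with GC contents of 78.4% for Ptch1, 76% for Hhip and 72% for Ihh and 41, 28 and 24 CpG dinucleotides.

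Of the ligands, only Ihh was abundant, and only in the jejunum. There Ihh lay between 17 and 44.66 CPM with a median of 30.13. In hearts it reached at most 0.3535 CPM, and 9 of 59 libraries had no read. Shh, the ligand that patterns the embryonic limb and neural tube, had no read in 57 of 59 hearts and at most 5 counts in the other 2, and in the jejunum at most 7 counts with 9 of 38 libraries at 0. Dhh, known from Schwann cells and the testis, was low in both tissues, at 0.4373 to 1.268 CPM in hearts and 0 to 1.548 CPM in jejuna. Hhip, the inhibitor, was the member that differed most in rank between the tissues: jejuna had 25.28 to 323.6 CPM, whereas hearts had at most 0.2454 CPM apart from 1 heart at 1.608 CPM, and 14 of 59 had no read. The most abundant ligand was thus Dhh in hearts and Ihh in jejuna.

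Placed on a scale per kilobase of exon (GENCODE M21, GRCm38), which allows levels of different genes to be ordered, the heart order was Smo (median 2.571 CPM per kilobase), Ptch1 (1.166), Gli1 (0.4126), Gli3 (0.3198), Gli2 (0.2952), Dhh (0.1742), Ihh (0.02264), Hhip (0.00507) and Shh (0). Smo lay above Ptch1, and Ptch1 above Gli1, in 59 of 59 hearts with no overlap of their ranges. The 3 GLI factors could not be ordered in the heart: Gli1 exceeded Gli3 in 38 of 59 hearts and Gli3 exceeded Gli2 in 30 of 59. In the jejunum the order was Hhip (14.34), Ihh (9.884), Ptch1 (7.717), Smo (4.066), Gli1 (2.122), Gli3 (0.9878), Gli2 (0.8156), Dhh (0.09838) and Shh (0.03223). The top 3 jejunum levels ran into one another, Hhip exceeding Ihh in 26 of 38 libraries and Ihh exceeding Ptch1 in 28 of 38. Gli1 was above Gli3 in 37 of 38 jejuna, with overlapping ranges. Without a length, Ptch1 and Smo, and Gli1 and Gli3, change places in the heart, as do Ihh and Ptch1 in the jejunum. The Ptch1 model is the longest of the 9, at 14185 exon bases over 10 transcripts, which lowers its level per kilobase.

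**Figure D1:**
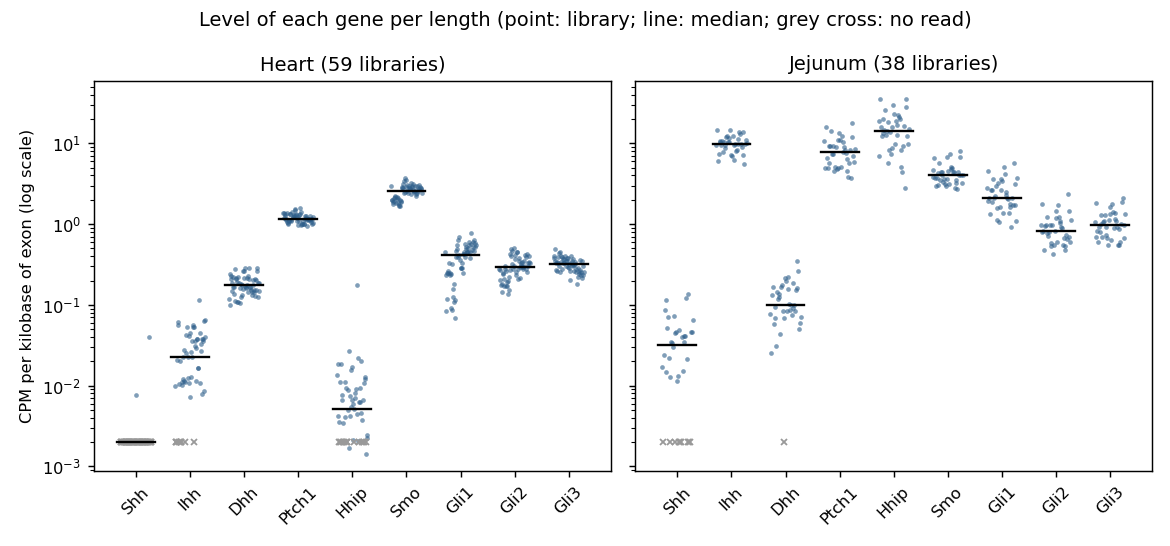
Level of each of the 9 genes in CPM per kilobase of exon (vertical, log scale) in 59 hearts and 38 jejuna; each point is a library, each line a median and each grey cross a library with no read. Hhip and Ihh head the jejunum order and lie near the bottom of the heart order, where Smo has the highest median, 2.571.

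After the filter on low counts, 6 members were tested in hearts (Dhh, Ptch1, Smo, Gli1, Gli2, Gli3) and 8 in the jejunum (all but Shh). Ihh and Hhip passed in the jejunum only, and Shh nowhere. In edgeR's quasi-likelihood test with Benjamini-Hochberg adjustment over all genes, 0 members were called at an adjusted p under 0.05 in any of the 14 comparisons.

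Gli1, the GLI factor induced by the pathway, had a lower mean on naproxen than in controls in the male hearts of experiment 1. In males of experiment 1, the controls had 1.158, 1.242, 1.245, 1.325 and 1.639 CPM (mean 1.322 ± 0.187, SD, n = 5). Males on naproxen had 0.3437, 0.5493, 0.5733, 0.6232 and 0.897 CPM (0.597 ± 0.199, SD, n = 5). All 5 naproxen hearts lay below all 5 controls, a separation in this direction that 1.12% of 15152 tested genes showed. The fitted difference was −1.14 on the log2 scale (SE 0.407), 0.454 times the control level, with an unadjusted p of 0.011 and an adjusted p of 0.499 in edgeR. These levels rested on 10 to 26 counts per naproxen heart and 36 to 49 per control heart. Leaving out each of the 20 libraries in turn gave −1.334 to −1.002, with an unadjusted p below 0.05 each time and an adjusted p of 0.35 to 0.87.

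Other lists differed between these male groups as well, in both directions. All 10 fibroblast markers had a negative difference (median −0.27, 1 of them at an unadjusted p below 0.05), and their summed level was 985.6 to 1212 CPM in controls and 746.7 to 1114 CPM on naproxen. All 6 macrophage markers were lower (median −0.44), with sums of 104.4 to 134.7 and 77.83 to 97.79 CPM. All 4 tested neuron markers were lower (median −0.56), with sums of 5.69 to 11.14 and 3.575 to 9.522 CPM, and up to 5 of the list's 8 genes were at 0 in a library. Smooth muscle markers were split, 4 higher and 4 lower. Of 6 pericyte markers 2 were higher and 4 lower (median −0.15), while their sums were higher on naproxen, at 1078 to 1261 CPM against 1015 to 1164 CPM. All 6 erythroid markers were higher (median 1.11), with sums of 1279 to 3963 CPM in controls and 1454 to 13770 CPM on naproxen. The summed level of 5 atrial genes, a list added after the values were seen, was 1054 to 2470 CPM in controls and 926.5 to 1769 CPM on naproxen. The part of these cells in the Gli1 difference was not tested.

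Females of experiment 1 showed no such separation. Their controls had 0.4156, 0.5892, 1.177, 1.249 and 2.257 CPM of Gli1, and their naproxen hearts 0.4333, 0.4578, 0.7799, 1.213 and 1.603 CPM. The ranges overlapped, with similar lowest values and a higher top value in controls. The difference was −0.35 (SE 0.392, edgeR adjusted p = 0.839), and it turned to 0.09 without control replicate 1, the heart at 2.257 CPM. The difference between the male and the female effect was −0.79 (SE 0.564, unadjusted p = 0.178, edgeR adjusted p = 0.759). It ranged from −1.234 (unadjusted p = 0.031, adjusted p = 0.36) without that heart to −0.475 without female naproxen replicate 4, and 1 of 20 fits that left out a library had an unadjusted p below 0.05.

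In experiment 2, the comparison that led to the choice of genes, control hearts ran from 1.969 through a median of 2.415 to 3.413 CPM of Gli1 (2.525 ± 0.556, SD, n = 8). Naproxen hearts ran from 1.227 through 1.445 to 2.147 CPM (1.581 ± 0.304, SD, n = 7). Hearts on naproxen plus tryptophan ran from 1.948 through 2.269 to 2.829 CPM (2.34 ± 0.283, SD, n = 8). Of the 7 naproxen hearts 6 lay below the lowest control, and of the 8 hearts with added tryptophan 6 lay above the highest naproxen heart, while the range with added tryptophan lay almost wholly within that of the controls. The fitted log2 differences were −0.67 (SE 0.136) for naproxen against control, 0.56 (SE 0.136) for naproxen plus tryptophan against naproxen and −0.11 (SE 0.129) for naproxen plus tryptophan against control. The first chose the gene and the others share the naproxen or the control hearts with it, so no p is given for Gli1 here. Over all 16085 genes tested, edgeR called 0% for naproxen against control, 0.0933% for naproxen plus tryptophan against naproxen and 0.255% for naproxen plus tryptophan against control.

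Markers of other cells differed beside Gli1 in experiment 2. All 6 tested neutrophil markers were higher on naproxen than in controls (median 2.30), with summed levels of 0.9046 to 9.259 CPM in controls, 6.257 to 37.28 CPM on naproxen and 0.3614 to 75.81 CPM with added tryptophan. Of 8 smooth muscle markers, 7 were lower on naproxen than in controls (median −0.17) and 7 higher with added tryptophan than on naproxen alone (median 0.17), and their sums were 1325 to 1785, 1266 to 1859 and 1514 to 1768 CPM in the order control, naproxen, naproxen plus tryptophan. Fibroblast sums were 813.6 to 1389, 689.7 to 1162 and 861.8 to 1159 CPM in the same order. Their part in the Gli1 values was not tested.

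**Figure D2:**
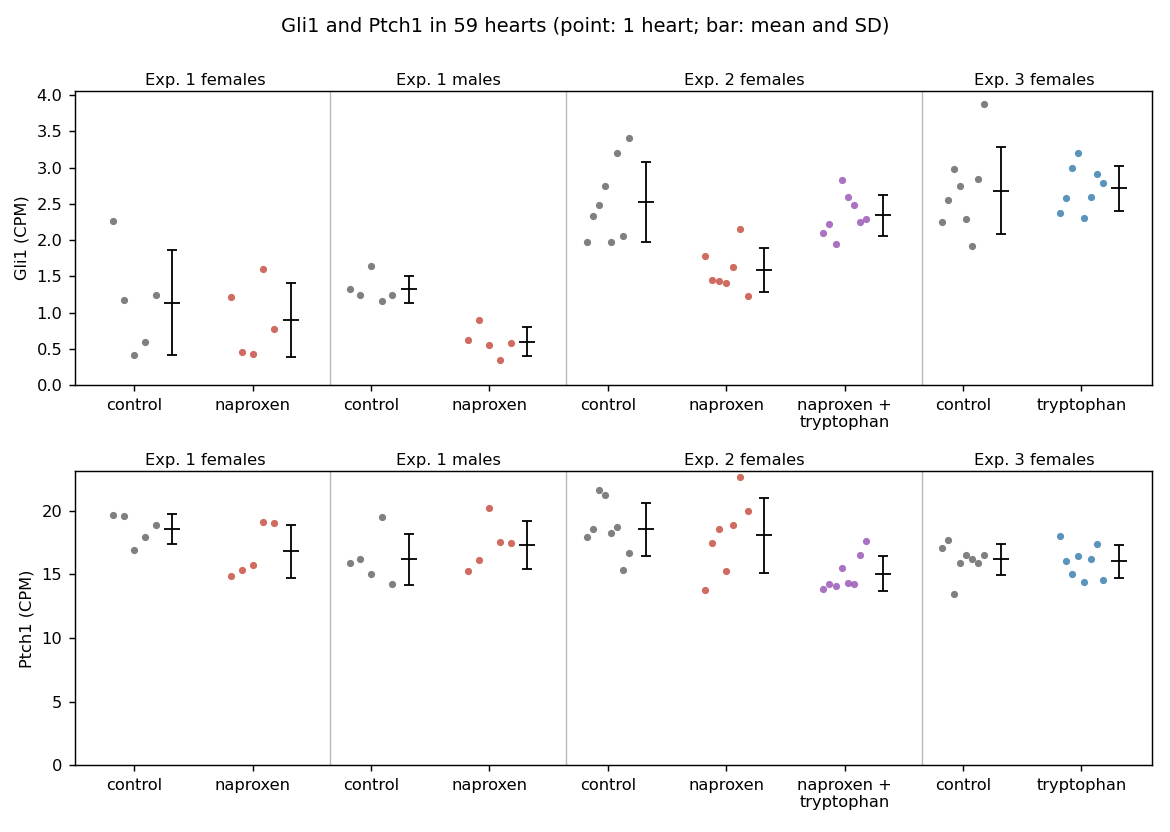
Gli1 (top) and Ptch1 (bottom) in CPM in each of 59 hearts, by experiment, sex and group; points are hearts and bars the mean and SD. Male naproxen hearts of experiment 1 (0.3437 to 0.897 CPM of Gli1) lie below all male controls, and Ptch1 is low in the naproxen plus tryptophan hearts of experiment 2 (13.87 to 17.64 CPM).

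Ptch1, the receptor that the pathway also induces, had another pattern than Gli1 in experiment 2. Controls ran from 15.37 through 18.43 to 21.66 CPM (18.55 ± 2.1, SD, n = 8), naproxen hearts from 13.76 through 18.61 to 22.64 CPM (18.1 ± 2.95, SD, n = 7), and hearts on naproxen plus tryptophan from 13.87 through 14.29 to 17.64 CPM (15.06 ± 1.37, SD, n = 8). Naproxen hearts spread around the control range, with 2 of 7 below the lowest control and 1 above the highest, while 5 of 8 hearts with added tryptophan lay below the lowest control and 8 of 8 below the median of either other group. Against control the difference was −0.30 (SE 0.087, unadjusted p = 0.00204, edgeR adjusted p = 0.112), and against naproxen it was −0.27 (SE 0.09, unadjusted p = 0.00703, adjusted p = 0.367). The first was called by DESeq2 (adjusted p = 0.0368) and by edgeR on those groups alone (adjusted p = 0.041). Leaving out each library gave an adjusted p of 0.0678 to 0.228.

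Gli2, the main activator, was also lowest with added tryptophan. Its levels ran from 1.857 through 2.838 to 3.431 CPM in controls, from 1.606 through 2.572 to 3.129 CPM on naproxen and from 1.434 through 2.077 to 2.582 CPM on naproxen plus tryptophan. The 8 hearts with added tryptophan all lay below the control median, with overlapping ranges. The difference from control was −0.42 (SE 0.166, unadjusted p = 0.0186, edgeR adjusted p = 0.208). For the repressor Gli3 the levels ran from 2.903 through 3.47 to 3.852 CPM in controls and from 1.935 through 2.849 to 3.85 CPM on naproxen, a difference of −0.26 (SE 0.108) in the comparison that chose the set. Endothelial markers were lower with added tryptophan than in controls in 6 of 6 (median −0.11, 1 at an unadjusted p below 0.05), with sums of 464.6 to 672.8 and 485.5 to 707.2 CPM, and fibroblast markers were split 5 to 5. The part of these cells was not tested.

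In the heart comparisons below, 0 to 2 of the 6 tested members had an unadjusted p below 0.05. Such counts are too small to be read as a difference between the experiments. Naproxen in experiment 1 females gave 2 positive and 4 negative member differences. Without control replicate 1, Smo (0.081), Gli1 (0.087) and Gli3 (0.045) turned positive, and only Ptch1 was negative (−0.086). With all libraries, 0 of 6 members had an unadjusted p below 0.05, against 7.14% of all genes, and edgeR called 0.0132% of all genes. In males, 1 of 6 members (Gli1) was at an unadjusted p below 0.05 against 7.68% of all genes, of which 0% were called. The test of the difference between the sexes gave 0 of 6 members, against 5.05% of all genes, and called 0% of all genes. Naproxen plus tryptophan against control in experiment 2 gave 1 member higher and 5 lower (median −0.13, all genes −0.00452), with Ptch1 and Gli2 (2 of 6) at an unadjusted p below 0.05 against 17.2% of all genes. For naproxen plus tryptophan against naproxen, where Gli1 is left untested, Ptch1 was at an unadjusted p below 0.05, against 9.8% of all genes. Tryptophan alone, in experiment 3, left Gli1 at 1.925 through 2.648 to 3.88 CPM in controls and 2.306 through 2.687 to 3.202 CPM with tryptophan, a difference of 0.03 (SE 0.094, edgeR adjusted p = 1). In that comparison 0 of 6 members reached an unadjusted p below 0.05, against 2.9% of all genes. Of the members 5 were higher and 1 lower, and 0% of all genes were called. Voom called 0 members in any heart comparison. Outside the comparisons with the naproxen hearts of experiment 2, DESeq2 called Ptch1 as above and no other member.

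Neither Smo nor Dhh passed the test in the heart. Differences of Smo, the transducer, lay between −0.16 and 0.09, and those of Dhh between −0.14 and 0.37 over the 6 heart comparisons between groups. Without the female control heart of experiment 1 that stood apart, the female Smo difference went from −0.111 to 0.081. The male minus female difference of Smo went from −0.052 to −0.253 (unadjusted p = 0.0744, edgeR adjusted p = 0.368). Across experiments, Gli1, Gli2 and Smo lay lower in experiment 1, while Dhh and Ptch1 were at similar levels. CPM were scaled within each experiment, and Gli1 lay at 0.3437 to 2.257 CPM in the 20 hearts of experiment 1 against 1.227 to 3.88 CPM in the 39 hearts of experiments 2 and 3. For Smo the ranges were 9.312 to 16.71 and 12.49 to 20.91 CPM. Group means of Gli2 were 1.23 to 1.625 and 2.027 to 2.714 CPM in the same order. Those of Dhh (0.7177 to 0.8387 and 0.7105 to 0.927 CPM) and Ptch1 (16.19 to 18.61 and 15.06 to 18.55 CPM) overlapped. Gli3 means were 3.171 to 3.627 and 2.487 to 3.436 CPM. Smooth muscle sums were also lower in experiment 1, with group medians of 688.8 to 824.1 CPM against 1552 to 1592 CPM in experiment 2, and so were cardiomyocyte sums (22520 to 29760 against 47770 to 49840 CPM). The cohorts also differed in injections and in depth, which cannot be told apart from the experiment. Only experiment 1 held males. Among female controls alone, mean Gli1 was 1.138 CPM in experiment 1 against 2.525 and 2.684 CPM in experiments 2 and 3. Mean Smo in these groups was 11.95 against 16.72 and 14.48 CPM.

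In the jejunum no member passed the test in any of the 7 comparisons. Ihh, the epithelial ligand, had nearly the same level in all 5 groups, with medians of 30.76 CPM in controls, 31.58 on celecoxib, 28.87 on naproxen, 29.82 on tryptophan and 30.19 on naproxen plus tryptophan. Its 7 log2 differences lay between −0.14 and 0.11. For Hhip, which sequesters ligand at the cell surface, controls ran from 63.44 through 139.4 to 323.6 CPM, and the other groups had medians of 118.2 to 144.9 CPM within 25.28 to 319.3 CPM. The Hhip differences lay between −0.47 for tryptophan against control (SE 0.319) and 0.41 for the interaction of naproxen and tryptophan (SE 0.464), and neither passed the test (edgeR adjusted p = 0.999 and 1).

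Gli1 in the jejunum ran from 6.729 through 11.71 to 22.55 CPM in controls (12.33 ± 4.77, SD, n = 8), from 5.25 through 10.88 to 18.32 on celecoxib (11.26 ± 4.9, n = 8), from 6.81 through 16.97 to 25.81 on naproxen (15.73 ± 6.83, n = 7), from 4.654 through 9.498 to 12.42 on tryptophan (9.142 ± 2.56, n = 8) and from 5.502 through 10.51 to 28.3 on naproxen plus tryptophan (13.67 ± 7.86, n = 7). All 5 groups overlapped, with naproxen having the highest median and tryptophan the lowest. Naproxen against control gave 0.39 (SE 0.288, edgeR adjusted p = 0.485), or 0.50 without control replicate 1 and 0.07 without naproxen replicate 4. Naproxen against celecoxib gave 0.53 (SE 0.29, unadjusted p = 0.0768, edgeR adjusted p = 0.314), or 0.22 without the same naproxen replicate. The values were, for tryptophan against control, −0.41 (SE 0.281, edgeR adjusted p = 0.999) and, for the interaction, 0.11 (SE 0.41, adjusted p = 1). Without control replicate 1 they were −0.31 and 0.01.

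Within dissection batches, mean Gli1 on naproxen and in controls was 10.66 and 11.74 CPM in batch 1, 17.6 and 16.47 in batch 2, 16.31 and 9.88 in batch 3 and 20.95 (1 animal) and 11.22 in batch 4. The naproxen mean was the higher one in 3 of 4 batches, and in batch 1 it was the lower. With 1 or 2 animals per group, no test was made within a batch.

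**Figure D3:**
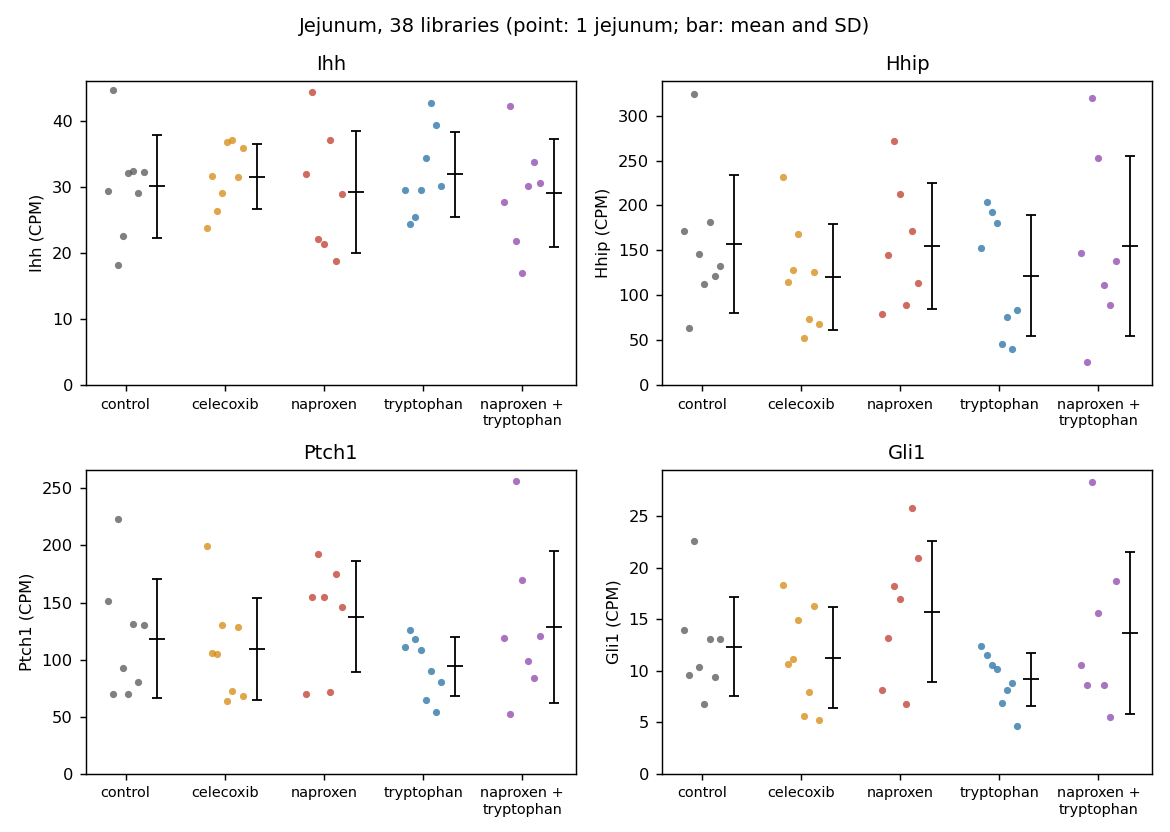
Ihh, Hhip, Ptch1 and Gli1 in CPM in each of 38 jejuna by treatment; points are jejuna and bars the mean and SD. The groups overlap for all 4 genes, and Ihh medians lie between 28.87 and 31.58 CPM.

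Ptch1 in the jejunum had group medians of 99.09 CPM (tryptophan) to 154.6 CPM (naproxen) within a range of 52.68 to 256.2 CPM, and its differences lay between −0.33 and 0.33. Smo differed by −0.09 to 0.22, Gli2 by −0.27 to 0.46 and Gli3 by −0.04 to 0.33. Dhh was the only jejunum member at an unadjusted p below 0.05, higher on naproxen plus tryptophan (0.2216 through 0.6707 to 1.548 CPM) than in controls (0.1101 through 0.3205 to 0.7306 CPM), with a difference of 0.89 (SE 0.423, unadjusted p = 0.0443, edgeR adjusted p = 0.816). That value rested on 5 to 31 counts against 2 to 17 with overlapping ranges, and its unadjusted p was 0.0504 without control replicate 1.

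Of 17185 genes in the jejunum, edgeR called 0.0116% for naproxen against control and 0% in each of the other 6 comparisons. At an unadjusted p below 0.05 there was 1 of 8 members (Dhh) for naproxen plus tryptophan against control, where 5.98% of all genes were. There were 0 of 8 members in the other 6 comparisons, where the share of all genes was 16% for naproxen against control, 18.7% for naproxen against celecoxib and at most 4.37% in the remaining 4. The median member difference was 0.21 for naproxen against control (all genes 0.022), 0.30 for naproxen against celecoxib (all genes 0.00673) and −0.18 for tryptophan against control, with 6, 6 and 2 of 8 members higher. Without control replicate 1, the differences for tryptophan against control were −0.408 (Hhip), −0.308 (Gli1), −0.237 (Ptch1) and −0.169 (Gli2). Those of Smo, Gli3, Ihh and Dhh were −0.022, 0.061, 0.062 and 0.482. DESeq2 and voom called 0 members in each of the 7 comparisons. Comparisons that share the control or the naproxen group are not independent of one another.

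**Figure D4:**
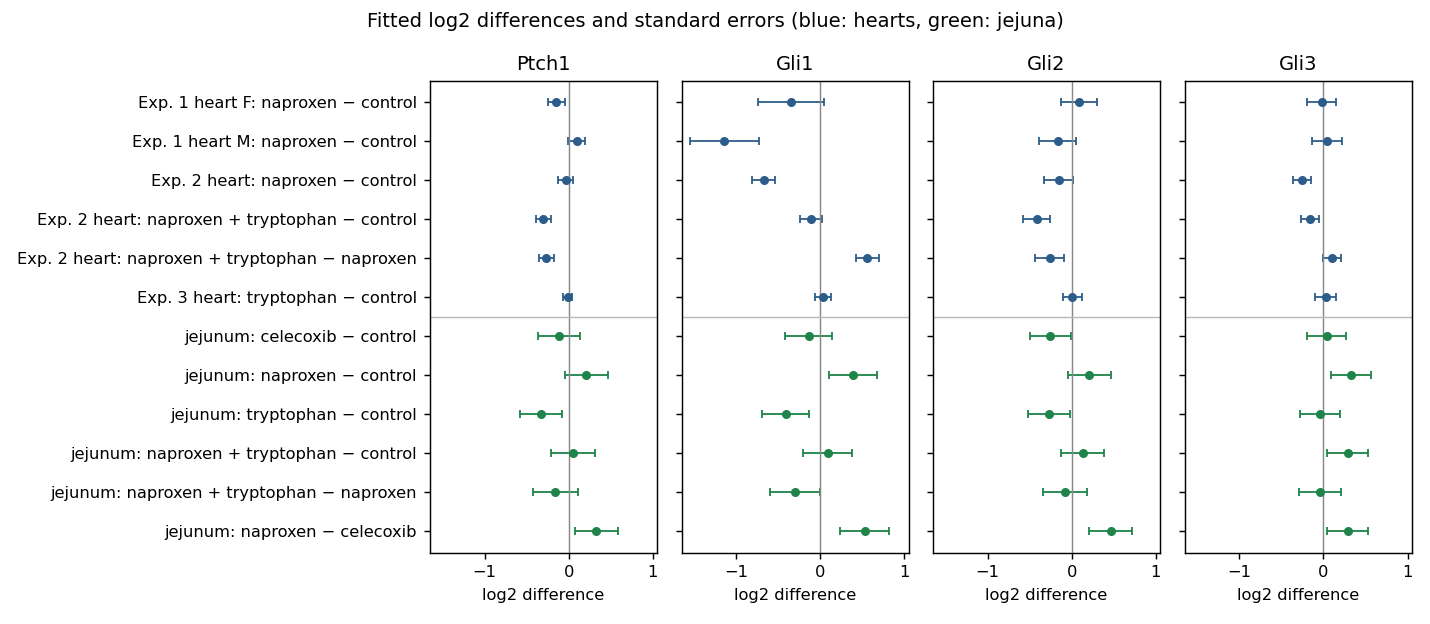
Fitted log2 differences (points) and standard errors (bars) of Ptch1, Gli1, Gli2 and Gli3 in 12 comparisons between groups, hearts in blue and jejuna in green. For naproxen against control Gli1 lies at −1.14 in males of experiment 1 and at −0.35 in females, a value that turns to 0.09 without 1 heart; the experiment 2 value of −0.67 chose the set.

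The neighbouring genes of the pathway were taken from lists chosen with the earlier results known, and edgeR called 0 of them in each of the 14 comparisons. The lists were ligand release (6 genes), co-receptors (6), signal relay between Smo and the GLI factors (18) and targets (16, of which 13 were tested in hearts). Of the ligand release genes, the one with the lowest p in hearts was Scube1, at 0.27 for naproxen plus tryptophan against naproxen (unadjusted p = 0.0909), and in the jejunum again Scube1, at 0.66 for naproxen against celecoxib (unadjusted p = 0.0276, adjusted p = 0.218). Scube proteins help release lipid-modified ligand. All 6 co-receptors were lower in hearts on naproxen plus tryptophan than in controls (median −0.29), with Cdon, which presents ligand to Ptch1, at −0.41 (unadjusted p = 0.0338, adjusted p = 0.25).

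No signal relay gene was called in hearts. Kif7, the kinesin that organises GLI factors at the cilium tip, was at −0.66 in experiment 1 males on naproxen (unadjusted p = 0.0184, adjusted p = 0.539), and 9 of 18 relay genes were higher and 9 lower there. In the jejunum 15 of 18 were higher on naproxen than in controls (median 0.24), 5 of them at an unadjusted p below 0.05 against 16% of all genes. Against celecoxib 13 of 18 were higher, 7 of them at an unadjusted p below 0.05 against 18.7% of all genes, with Grk2, a kinase that phosphorylates Smo, at 0.21 (unadjusted p = 0.00416, adjusted p = 0.139).

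Of 13 targets tested in hearts, 1 was higher and 4 lower at an unadjusted p below 0.05 for naproxen plus tryptophan against control. In that comparison 17.2% of all genes were at such a p. The lowest p among the targets was that of Ccnd2, a D-type cyclin, at −0.24 (unadjusted p = 0.00466, edgeR adjusted p = 0.142). In the jejunum 14 of 16 targets were higher on naproxen than on celecoxib (median 0.40), led by the Notch ligand Jag2 at 0.71 (unadjusted p = 0.00526, adjusted p = 0.14), and 13 of 16 were lower on tryptophan than in controls (median −0.32). Stromal markers moved with them. For naproxen against celecoxib, 6 of 6 telocyte markers (median 0.48, sums 242.7 to 1074 and 168.4 to 737.8 CPM) and 6 of 6 endothelial markers (median 0.61, sums 170.7 to 713 and 119.8 to 409.1 CPM) were higher and 8 of 8 gut epithelium markers lower (median −0.27, sums 6393 to 22420 and 14490 to 22970 CPM). For tryptophan against control, 6 of 6 telocyte markers (median −0.34, sums 140.6 to 585.1 and 180.4 to 902.9 CPM) and 6 of 6 endothelial markers (median −0.31, sums 109.6 to 498 and 140.6 to 698.8 CPM) were lower. None of these genes was at 0 in a library. In the telocyte sums, the 902.9 CPM was that of control replicate 1, and the other controls reached at most 509.9 CPM. The list medians and sums include that library. The part of tissue composition in the member and target values was not tested.

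Among jejuna of the same group and dissection batch, the receiving-side members moved together and Ihh moved against them. The values below are Pearson correlations of log2 CPM over 38 libraries after group and batch means were removed, given as a description, since the values of a library share its dissection and depth. Gli1 and Gli2 had r = 0.93, Ptch1 and Hhip 0.89, Smo and Gli2 0.84 and Ptch1 and Gli1 0.82, while Hhip and Gli3 had 0.42. Ihh had negative values with all 7 other tested members, from −0.67 (Hhip) to −0.49 (Gli3). Without control replicate 1, Gli1 and Gli2 had 0.92, Ptch1 and Hhip 0.89, and Ihh and Hhip −0.66. Correlations with the log2 total count were between −0.37 (Gli3) and 0.09 (Hhip).

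The receiving-side members went with markers of several stromal cell types at once, and no difference between these correlations was tested. Ptch1 and Hhip had r = 0.94 and 0.94 with the mean of the telocyte markers, 0.91 and 0.92 with endothelial, 0.83 and 0.93 with macrophage and 0.83 and 0.81 with fibroblast markers. Smo had 0.94, Gli2 0.87, Gli3 0.86 and Gli1 0.84 with pericyte markers, and Gli3 had 0.87 with 2 markers of interstitial cells of Cajal. Fibroblast markers had 0.85 with Smo, 0.82 with Gli2 and 0.75 with Gli1. With smooth muscle markers the values were 0.78 for Gli3, 0.58 for Gli1 and 0.03 for Hhip. Other lists had high values too, so the correlations do not single out a cell type. Cardiomyocyte markers, 4 of them tested, had 0.80 with Gli3, 0.75 with Gli2 and 0.33 with Hhip. Schwann and glia markers had 0.75 with Smo, 0.73 with Gli1 and 0.18 with Hhip. Ihh had 0.73 with gut epithelium markers and −0.77 with endothelial markers. Foxl1 and Pdgfra, which are in the telocyte list, are also in the target and fibroblast lists.

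In hearts the members were less closely tied. Over 59 hearts with group and batch means removed, Smo and Gli1 had r = 0.54, Smo and Gli2 0.53, Ptch1 and Gli3 0.46, Gli1 and Gli2 0.23 and Ptch1 and Gli1 0.18. Without the female control heart of experiment 1 that stood apart, Smo and Gli1 had 0.41. Gli1 had 0.51 with smooth muscle, 0.50 with fibroblast and 0.46 with neuron markers, Gli2 0.60 and Gli3 0.58 with fibroblast markers, and Ptch1 0.51 with endothelial markers. Dhh had values of −0.08 to 0.18 with the other members and −0.56 with cardiomyocyte markers.

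**Figure D5:**
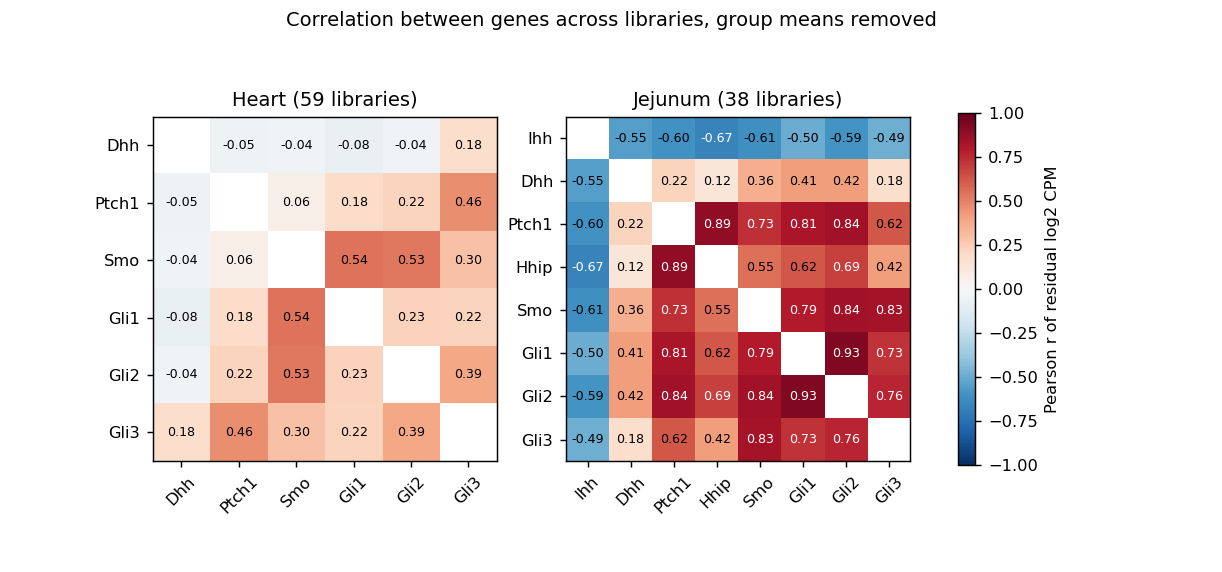
Pearson correlations of residual log2 CPM between members after group and batch means were removed, in 59 hearts and 38 jejuna (color scale from −1 to 1). In the jejunum Ihh is negative with all other members and the remaining pairs without Dhh lie between 0.42 and 0.93, and in hearts the highest value is 0.54.

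The genes most like Gli1 in the jejunum, among 14872 protein-coding genes tested and by the same correlation, were Stard9 (0.96), Nav1 (0.95), Inf2 (0.94), Syne1 (0.94) and Pde4a (0.93). In hearts, among 13584 genes, they were Arhgef40 (0.75), Rtkn (0.75), Gsn (0.73), Nacad (0.73) and Osbpl5 (0.73). None of the 5 was shared. Most like Hhip in the jejunum were Calcrl (0.97), Adgrl4 (0.96), Otulinl (0.96), Igsf10 (0.96) and Bgn (0.96), and most like Ihh were Ldb3 (0.89), Gak (0.86), Dolpp1 (0.85), Myo15b (0.84) and Mkrn1 (0.84).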

How the data were processed

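The authors deposited gene-level estimated counts from Salmon 1.9.0, with R 4.2.2 and GRCm38 also named, per the submitters' processing notes. The step from transcripts to genes was not given in the sources used here. Estimated counts (24.7% of values not whole) were rounded and fitted per experiment with edgeR 4.0.16 (R 4.3.3, limma 3.58.1): filterByExpr with a minimum count of 10, TMM, all groups in one model, dissection batch as a term in experiments 3 and 4, quasi-likelihood test, Benjamini-Hochberg over all tested genes, threshold 0.05. CPM use the same scaling, and correlations log2 CPM with a prior count of 2. The script was tested on simulated data. Alternatives were DESeq2 1.42.0, voom, RLE size factors, no filter, the groups compared alone, no batch term, the replicate block and each library left out.

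The members, lists and tests were chosen with earlier results of these data known. All 9 members are named. Of the neighbouring lists the gene with the smallest p in a tissue is named, except 1 that is not reported here, and beside it list leaders of single comparisons, chosen after values were seen. For Gli1, Ihh and Hhip the 5 protein-coding genes of highest correlation are named. Atrial and airway lists were added after values were seen.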

Additional observations from a re-analysis of the deposited data

Results flagged for a closer look

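In 10 of 99 combinations of a member and a group, 1 library lay far from the rest of its group by Dixon's criterion, which chance alone meets in about 1 group in 20. A jejunum of the control group, replicate 1, accounts for 4 of them: it had 323.6 CPM of Hhip (next 181.9), 22.55 CPM of Gli1 (next 13.9), 12.35 CPM of Gli2 (next 6.754) and 17.38 CPM of Gli3 (next 10.23). The same jejunum had the lowest Ihh of the controls, 18.21 CPM.

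A female control heart of experiment 1, replicate 1, had 16.71 CPM of Smo (next 11.34) and also the highest Gli1 of its group, 2.257 CPM. In experiment 3, control replicate 6 had the lowest Ptch1, 13.49 CPM (next 15.93), and the highest Hhip, 0.1846 CPM (11 counts, next 0.08448), and control replicate 7 had 0.3535 CPM of Ihh (17 counts, next 0.1363). A tryptophan jejunum, replicate 3, had 0.8316 CPM of Dhh (14 counts, next 0.4556).

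A heart on naproxen plus tryptophan in experiment 2, replicate 4, had 1.608 CPM of Hhip (104 counts), where the next in its group had 0.1969. That heart also had 151 CPM of the airway gene Scgb1a1, chosen after values were seen, which ranged from 0 to 439.3 CPM over the hearts. The heart at 439.3 CPM, naproxen replicate 1 of experiment 2, had 0.1534 CPM of Hhip.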

How the results depend on the processing

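The number of members called, 0 in each of the 14 comparisons, was the same in 84 of 90 alternative fits and in 411 of 411 fits that left out a library. The other 6 each gave 1: DESeq2 for naproxen against control in experiment 2 (Gli1, the comparison that chose it), for naproxen plus tryptophan against naproxen (Gli1, sharing the naproxen hearts) and against control (Ptch1), edgeR on the compared groups alone for the last (Ptch1), and edgeR with no filter for tryptophan against control (Hhip) and naproxen against celecoxib (Gli1) in the jejunum. The Gli1 calls in hearts used the naproxen hearts that chose the gene, so they are no test of it. Why the fits differed was not tested. Over all genes, naproxen plus tryptophan against control in hearts had 41 calls, 468 with DESeq2, 231 on the compared groups alone, 9 with no filter and 4 with the replicate block, and naproxen against celecoxib in the jejunum 0, 295 with DESeq2 and 1784 with no filter. In the other 12 comparisons edgeR called 0 to 15 genes and DESeq2 1 to 139, and with no filter edgeR called 179 for tryptophan in hearts and 253 to 1182 in the jejunum.

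The replicate block called 0 members in every comparison. Replicate numbers were not treated as pairs in the main fits. Correlations above 0.1 were found in 3 of 10, 8 of 22, 4 of 8 and 31 of 73 same-numbered pairs of experiments 1 to 4. In the same order, 0 of 20, 2 of 23, 5 of 16 and 9 of 38 libraries correlated best with their own number. Mean r was 0.047, −0.001, 0.124 and 0.097 for same-numbered pairs and −0.003, 0.002, −0.017 and −0.014 for other pairs. Group means were removed here and dissection batch was not.

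With a library left out, the Gli1 difference changed sign in 9 fits. It ranged from −0.664 to 0.087 for females of experiment 1, −0.002 to 0.103 for tryptophan in experiment 3, and in the jejunum −0.113 to 0.202 for naproxen plus tryptophan against control, −0.502 to 0.006 against naproxen and −0.082 to 0.415 for the interaction. Without the female control heart that stood apart (an alternative added after the data were seen), the heart correlations of Dhh with Smo, Gli1 and Gli2 were 0.075, 0.023 and 0. Shh, and Ihh and Hhip in hearts, did not pass the filter. With no filter edgeR called 0 of them in hearts, with Hhip at an unadjusted p below 0.05 for naproxen plus tryptophan against naproxen. In the naproxen plus tryptophan group replicate 4 had 1.608 CPM of Hhip and the next heart 0.1969 CPM. The medians of the 2 groups were 0.06566 and 0.0536 CPM.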
